A study of Homo sapiens with 14 samples.

Results

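The sites described here are adenosines within a DRACH motif that lie in internal exons shorter than 200 nt. DRACH is the 5-base consensus (D is any base but C, R is A or G, H is any base but G) whose adenosine is methylated to N6-methyladenosine (m6A). The members were taken from the deposited site table by annotation and motif alone: an internal exon, an exon length (end minus start plus 1) under 200, and a DRACH 5-mer. This gave 11681 of the 407343 unique sites, or 2.87%, and 7.47% of the 156320 DRACH sites. They lay in 10415 exons of 5692 gene identifiers. 7 of them carried more than 1 annotation.

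The levels came from GLORI sequencing. Glyoxal and nitrite convert adenosine without a methyl group so that it is read as G, while m6A keeps being read as A, and the level given throughout is the percentage of A among a site's A and G reads. The 14 libraries were made from polyadenylated RNA of 6 established human cancer lines kept for 24 h with DMSO, the solvent control: A549 (lung carcinoma), OE21 (oesophageal), and CAOV3, EFO21, SKOV3 and COV644 (all ovarian). CAOV3 was also treated for 24 h with 1 uM STM3675, a compound used in a study of METTL3 inhibition. Each of the 7 groups held 2 libraries, numbered 1 and 2 in the labels, which do not say whether the pair came from separate cultures. P-values from tests over libraries therefore measure the spread between these libraries, which may be technical. Those of the paired tests over the 6 lines measure how evenly a difference recurs across the lines. The quasi-binomial p-values of single sites rest on read counts and 1 spread between libraries common to all sites, not on each site's own.

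METTL3, with METTL14 and WTAP, forms the nuclear writer that methylates DRACH adenosines in nascent transcripts. Exon junction complexes are deposited upstream of splice junctions and are known to keep the writer away from nearby sequence, so that m6A is known to be concentrated in long internal exons and in last exons and to be sparse in short, spliced coding exons. Reader proteins of the YTH family bind m6A in the nucleus or the cytoplasm.

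The motifs differed widely in level, as the rank of the 18 DRACH 5-mers shows. Over the 2315 members with 20 or more reads in all 12 DMSO libraries, GGACT had the highest mean level over the 6 lines, 20.0% (504 sites), followed by GAACT at 17.5% (171 sites), GGACA at 16.6% (421 sites) and AGACT at 16.5% (232 sites). AAACA stood at 8.53% (29 sites) and AAACC at 8.10% (19 sites). In internal exons of 200 nt or more the same 5-mers stood at 58.8%, 54.1%, 51.8%, 51.5%, 23.2% and 15.7%. GGACT made up 15.9% of all members and 14.9% of the long-exon DRACH sites. GGACC, with a mean level of 14.4%, made up 11.8% of the members and 8.93% of the long-exon sites.

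To show such sites in their sequence, 25 bases centred on the adenosine were read from the RefSeq promoter windows of GRCh38.p14, the only genomic sequence used here. 38 members examined for this had these bases inside a window of that table. The listed 5-mer was found at the site in 38 of 38. The 6 sequences below are members of different genes with full coverage in the 12 DMSO libraries, read 5′ to 3′ on the transcript strand with the motif in capitals.
AUP1 exon 3 (chr2:74529210-74529234, minus strand): ggaggactccGGACTccgggatcac
NHLRC2 exon 2 (chr10:113858612-113858636, plus strand): actgctgcatAAACTgtattcacct
TFDP1 exon 4 (chr13:113623244-113623268, plus strand): aaaaacctttGGACAgtccaatgtc
MRPS34 exon 2 (chr16:1772627-1772651, minus strand): tgcagaacttGGACCacgggaaggc
ACIN1 exon 8 (chr14:23078185-23078209, minus strand): caaacctcagAGACTcagacctctc
TACC3 exon 13 (chr4:1740836-1740860, plus strand): gaagcagaagGAACTttccaaagct
Their mean levels over the 6 lines were 27.0%, 22.9%, 20.7%, 18.4%, 11.9% and 11.3%, in that order. The AUP1 site ranged from 14.5% to 37.8% over the 12 libraries, with a median of 26.4%, and the TACC3 site from 2.50% to 27.3%, with a median of 9.99%. TACC3 exon 13, 161 nt long, held a further member, an AAACA 130 nt from its 5′ edge, at 9.25%.

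The next 4 sequences show members at the very edge of an exon, with the motif in capitals.
MFAP2 exon 7, first base (chr1:16975718-16975742, minus strand): acctgtcaccAGACTgccgtgagga
ERO1B exon 15, first base (chr1:236220953-236220977, minus strand): tattttctttAGACTcagggtttag
IFT46 exon 2, first base (chr11:118565049-118565073, minus strand): ccctttgcttAGACCaaggttgttg
DEPDC1 exon 10, 3 nt from the last base (chr1:68479135-68479159, minus strand): cttaaaaaagGGACAtgtaagtatt
In the first 3 the AG before the adenosine lies upstream of the annotated exon, in the intron, so the listed 5-mer is that of the genome and not of the spliced RNA. The DEPDC1 motif ends 1 base before the exon does, and the lower-case gtaagt after it is intronic. Of the 199 members on the first base of their exon, 199 had AG as the bases before the site, while 0 members lay on either of the last 2 bases of an exon. Both counts follow from the intron bases that the 5-mer takes in there, and neither is a result on m6A. In all, 408 members (3.49%) were on the first or second base, so that their listed motif runs across the splice junction, and the motif in their mature transcript was not analysed here. The 78 of them with full coverage had a mean level of 13.0%, and the mean of the other 2237 was 15.5%.

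The table lists a site where at least 1 DMSO library had 20 or more reads and a level of 25% or more, so a listed site is one whose highest library was high. Of the 11681 members, 8986 (76.9%) reached that mark in exactly 1 of the 12 libraries, against 7498 (29.4%) of the 25527 DRACH sites in internal exons of 200 nt or more. 59 members (0.505%) and 3095 long-exon sites (12.1%) reached it in all 12 libraries. The number of members that reached it ran from 361 in OE21 library 2 to 2645 in SKOV3 library 2. The means below are therefore taken over sites covered in every library compared, whether or not they reached 25% there. The member exons had a median length of 138 nt (quartiles 108 and 167 nt), and the members a median distance of 31 nt to the nearer exon edge (quartiles 15 and 51 nt), counted as 0 on the first or last base. 9285 of the 10415 exons held 1 member, 1014 held 2, and 116 held 3 or more.

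The libraries held 14047302 to 28663588 A and G reads over all sites, of which 360039 to 794188 fell on members. At non-DRACH adenosines of the same exon class, where little m6A is known to occur, the median level was 3.75% in COV644 and 3.89% in OE21 and lay between 9.71% and 11.8% in the other 4 lines. These 2 lines stand apart from the rest, and results that rest on them are given with and without them. Among the cell type markers with DMSO, the 6 of squamous epithelium (KRT5, KRT14, TP63, DSG3, SOX2 and PITX1) had their most reads in OE21. The ovarian markers did not mark the ovarian lines as a whole: PAX8 had its most reads in SKOV3, and 376.5 per library in COV644 against 374.5 in OE21. FOLR1 and SOX17 had their most in EFO21, MSLN in COV644 and WT1 in A549 (194), and MUC16 had no listed site. Of the lung markers, SFTPB, SFTPC, NAPSA and SCGB1A1 had no listed site and NKX2-1 had 2.5 reads per A549 library on average, against 334.5 in COV644 and 201 in OE21, so the lung markers were absent or near 0 in A549. Of the markers of other cells, PTPRC and VWF had no listed site, PECAM1 had its most reads, 7881, in EFO21, and PDGFRB had 110 there. COL1A1 ran from 128.5 reads per library in EFO21 to 2598.5 in COV644, and CD14 from 4.5 in SKOV3 to 651 in CAOV3, with 1033 with STM3675. The part of other cells in the results was not tested.

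Short internal exons carried far less m6A than long ones in every line. With DMSO, the mean over the 2315 covered members was highest in CAOV3, 19.1% ± 0.497, followed by 17.9% ± 1.38 for EFO21, 17.5% ± 1.56 for SKOV3, 16.0% ± 0.0831 for A549, 12.04% ± 0.760 for COV644 and 9.82% ± 0.0581 for OE21 (SD, n = 2 each). The 5968 long-exon DRACH sites with the same coverage stood at 49.8%, 47.8%, 45.9%, 45.1%, 47.7% and 43.4% in the same order. The difference averaged -31.2 points ± 2.84 over the 6 lines (SD) and ran from -35.7 to -28.4. An exact paired sign-flip permutation test gave p = 0.03125, two-sided, the smallest that 6 lines allow, and 0.0365 after Benjamini-Hochberg adjustment over 7 paired comparisons; those 7 share the same lines and many of the same sites. For GGACT alone the difference was -38.8 points ± 2.15 (20.0% against 58.8%, same exact permutation p). Without COV644 and OE21, the mean differences were -29.5 points over all motifs and -37.5 points for GGACT, where 4 lines cannot give an exact p under 0.125.

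**Figure D1:**
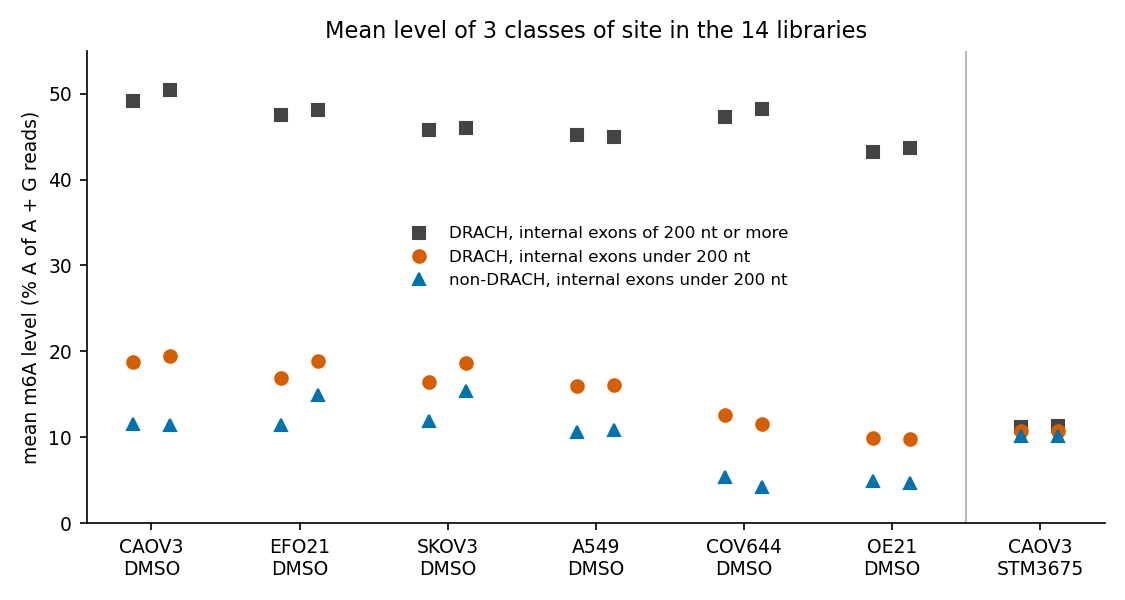
Mean m6A level (% A of A and G reads, vertical axis) of 3 classes of site in each of the 14 libraries, 2 points per group; the DMSO points cover sites with 20 or more reads in all 12 DMSO libraries and the STM3675 points those with 20 or more in the 4 CAOV3 libraries. Short-exon DRACH sites lie between 9.78% and 19.5% with DMSO, all below the long-exon sites (43.2% to 50.5%), and at 10.7% and 10.8% with STM3675.

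Most members stood low, and a small number stood high. Of the 2315, 607 (26.2%) had a mean level over the 6 lines under 10%, 1478 (63.8%) lay from 10% to 25%, 205 from 25% to 50%, 22 from 50% to 75% and 3 at 75% or more. The share at 25% or more was 9.94%, against 67.8% of the long-exon sites and 65.1% of the 3490 DRACH sites in the first 150 nt of last exons. It was 0.206% of the 9689 non-DRACH sites in short internal exons, 20 sites, of which 0 reached 50%. The median site stood at 13.1% among members, 39.1% in long internal exons, 33.4% at the start of last exons and 9.17% at non-DRACH adenosines of short exons.

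The 25 members at 50% or more lay at all distances from the splice junctions. 8 lay within 25 nt of the nearer edge, 7 from 25 to 49 nt and 10 at 50 nt or more (32.0%, 28.0% and 40.0%, against 36.8% of all 2315 in the first of these ranges and 28.9% in the last). 19 of the 25 were in exons of 150 nt or more, which held 43.8% of the 2315. By motif, 8 were GGACT, 7 GGACA, 6 GAACT, 3 AGACT and 1 GGACC. They are too few for a share to be compared, and these counts are a description.

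SSU72, which encodes a phosphatase of the RNA polymerase II tail, held the highest member with 50 or more reads in every DMSO library. The site is a GAACT at position 1564775 of chromosome 1 (GRCh38, minus strand), 2 nt from the 3′ edge of exon 2, which is 144 nt long (1564773 to 1564916). Its level was 85.7% and 85.7% in A549, 93.1% and 93.2% in CAOV3, 85.3% and 86.0% in COV644, 94.1% and 92.1% in EFO21, 82.6% and 86.0% in OE21, and 93.9% and 93.5% in SKOV3. No library was below 82.6%, on 152 to 1216 reads each. A GGACT of the same exon, 37 nt from its 5′ edge (position 1564879), stood at 33.3% over the lines.

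The other high members belonged to genes of varied function. LAMTOR2, a subunit of the lysosomal Ragulator complex, had a GGACT 7 nt from the 3′ edge of its 163 nt exon 2 (chromosome 1, position 156055418) at 60.0% to 78.1% over the 12 libraries. NCBP2, the small subunit of the nuclear cap-binding complex, had a GAACT 86 nt from the 3′ edge of its 182 nt exon 2 (chromosome 3, position 196939337) at 49.3% to 80.8%. These sites lie near an edge in the one gene and close to the middle of the exon in the other. GUK1, a guanylate kinase, stood at 61.8% on average over the lines, DEPDC1 (exon 11) at 59.4%, EXOSC10, a nuclease of the nuclear exosome, at 54.1%, GPAA1, a subunit of the GPI transamidase, at 54.2%, and SGPP1, a sphingosine-1-phosphate phosphatase, at 54.0%. Of the 420 members with 50 or more reads in all 12 libraries, the median was 18.8%.

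Level rose only slightly with distance from the splice junction inside short exons. Members 50 nt or more from the nearer edge had a mean of 16.8% ± 3.60 over the 6 lines (669 sites) and those within 25 nt 14.8% ± 3.73 (852 sites). The difference of 2.06 points ± 1.16 was positive in 6 of 6 lines, from 0.612 to 3.68 (exact sign-flip permutation p = 0.03125, adjusted 0.0365). It was 0.555 points when the 18 motifs were given equal weight (exact permutation p = 0.25), 0.0657 points over sites with 50 or more reads (p = 0.9062, exact permutation) and -0.123 points in exons under 150 nt (exact permutation p = 0.6562). GGACT made up 18.6% of the members in the first 10 nt and 29.9% of those 75 nt or more from an edge. In long internal exons the difference between sites 100 nt or more from an edge and nearer ones was 20.4 points ± 1.84 (52.9% against 32.5%, same exact permutation p).

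Within 1 class of exon length, the means by distance lay close together. In exons of 100 to 149 nt the means over the lines were 14.7% within 25 nt of an edge (371 sites), 14.3% from 25 to 49 nt (352 sites) and 14.0% at 50 nt or more (169 sites). In exons of 150 to 199 nt they were 16.5% (228 sites), 16.8% (286 sites) and 17.8% (500 sites). In exons of 50 to 99 nt they were 13.0% within 25 nt (226 sites) and 13.0% from 25 to 49 nt (156 sites). GGACT sites alone, in exons of 150 to 199 nt, stood at 21.7% (54 sites), 22.0% (71 sites) and 21.3% (140 sites). Other motifs were less even: AGACT in exons of 100 to 149 nt stood at 19.2% (39 sites), 14.5% (40 sites) and 13.2% (20 sites), and GAACT in exons of 150 to 199 nt at 14.4% (16 sites), 21.7% (21 sites) and 18.8% (64 sites). These are values by class, and the differences within a class were not tested apart from the one in exons under 150 nt above.

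Level also went with exon length. Members in exons of 150 nt or more had a mean of 17.2% ± 3.57 over the lines (1014 sites) and those in exons under 100 nt 13.2% ± 4.01 (409 sites), a difference of 4.01 points ± 1.74 that was positive in 6 of 6 lines (exact sign-flip permutation p = 0.03125, adjusted 0.0365). With equal weight for the motifs it was 1.67 points (exact permutation p = 0.03125). GGACT made up 14.7% of the covered members in exons of 50 to 99 nt and 26.1% in exons of 150 to 199 nt. The 27 members in exons of 20 to 49 nt stood at 15.9%, those in exons of 50 to 99 nt at 13.0% and of 100 to 149 nt at 14.4%. The limit of 200 nt was no step: members in exons of 190 to 199 nt stood at 17.9% (225 sites) and DRACH sites in exons of 200 to 209 nt at 20.0% (159 sites). Long exons went on from 23.8% at 200 to 249 nt to 31.3% at 250 to 299 nt and 54.6% at 600 to 999 nt.

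In the same range of distance from the edge, the mean over short-exon sites was lower than that over long-exon sites. Within 50 nt of an edge, members averaged 14.8% ± 3.74 (1646 sites) and long-exon DRACH sites 26.0% ± 3.62 (608 sites). The difference was -11.1 points ± 1.98 and negative in 6 of 6 lines (exact sign-flip permutation p = 0.03125, adjusted 0.0365), in a comparison added after the data were seen. It was not run with equal weight for the motifs. GGACT made up 18.6% of members and 19.8% of long-exon sites in the first 10 nt, and 21.5% and 26.9% from 25 to 49 nt. In the first 10 nt the 2 classes stood at 14.5% and 21.2%, with line means that overlapped (9.17% to 17.9% and 15.8% to 26.5%). At 75 to 99 nt they stood at 19.2% and 37.1%, and no line mean of the short exons reached one of the long exons.

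**Figure D2:**
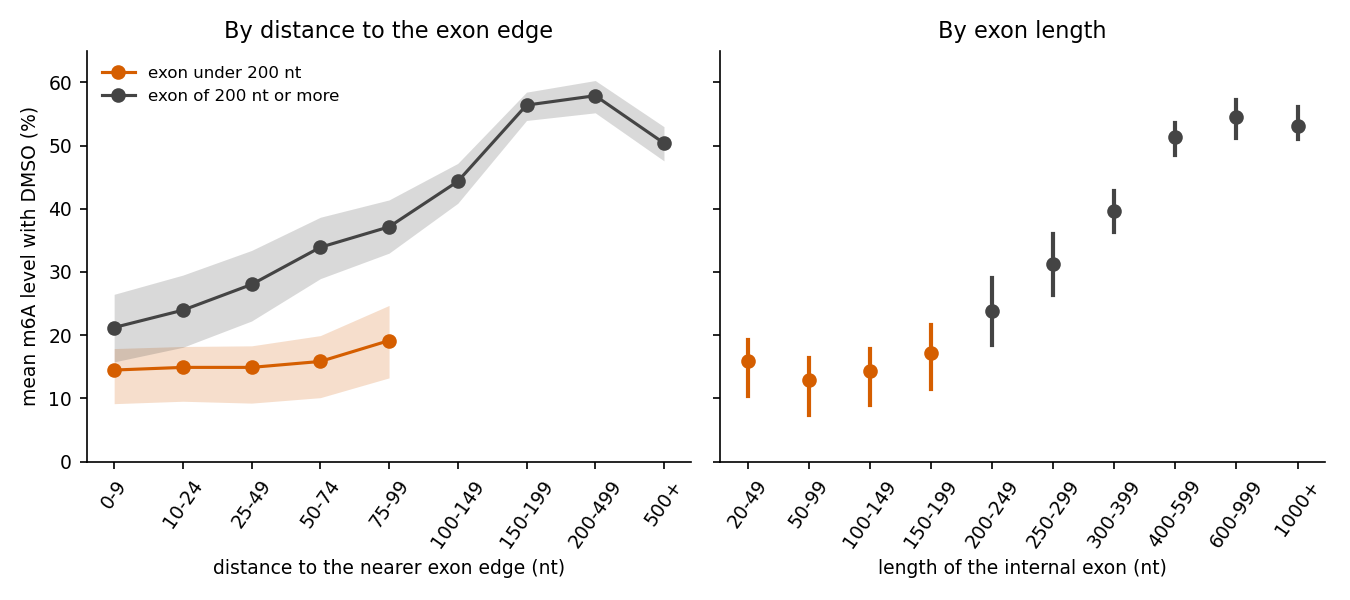
Mean m6A level with DMSO (%, vertical axis) of DRACH sites in internal exons, by distance to the nearer edge (left, nt) and by exon length (right, nt), over 6 lines; points are means of the lines, and bands or bars run from the lowest to the highest line. Short exons (orange) stay between 14.5% and 19.2% at every distance, while long exons (grey) go from 21.2% to 57.9%; over exon length the mean goes from 13.0% at 50 to 99 nt to 54.6% at 600 to 999 nt.

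The difference between the 2 sides of an exon did not pass the test, and its call and its sign changed with the processing. Members nearer the 3′ edge averaged 15.6% (1152 sites) and those nearer the 5′ edge 15.2% (1149 sites), a difference of 0.429 points ± 0.329 that was positive in 5 of 6 lines (exact sign-flip permutation p = 0.0625, adjusted 0.0625). Over sites with 50 or more reads it was -0.739 points (exact permutation p = 0.0625), and from pooled reads -0.327 points (exact permutation p = 0.3125). The exact permutation p was 0.03125, past the threshold before adjustment, with sites listed through another line (0.477 points). The same p was reached without CAOV3 library 2 (0.424 points), COV644 library 1 (0.485), EFO21 library 1 (0.407), EFO21 library 2 (0.548) or OE21 library 1 (0.512).

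The regulatory subunit of the writer, WTAP, had the exon with the most members. Exon 6 of WTAP (chromosome 6, 159748191 to 159748369, plus strand, 179 nt) held 6, between 107 and 149 nt from its 5′ edge. The last of them, a GAACT 29 nt from the 3′ edge (position 159748340), stood at 82.8% over the lines, from 69.6% to 94.4% in the 12 libraries. The first, also a GAACT, at position 159748298, stood at 38.8% (20.0% to 60.0%), so the 2 sites with the same 5-mer did not overlap. The 4 members between them stood at 13.9%, 18.0%, 18.3% and 12.9%, on 8 to 33 reads per DMSO library, which leaves each single library imprecise.

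**Figure D3:**
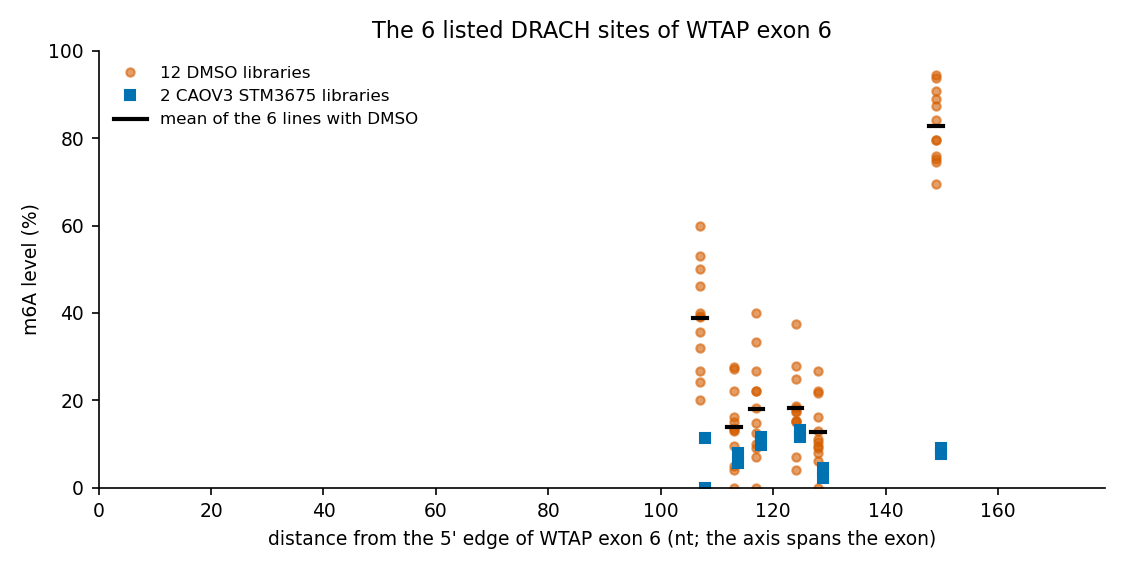
m6A level (%, vertical axis) of the 6 members in WTAP exon 6 against their distance from its 5′ edge (nt; the horizontal axis spans the exon): circles are the 12 DMSO libraries, bars the mean of the 6 lines, squares the 2 CAOV3 libraries with STM3675. The site at 149 nt lies between 69.6% and 94.4% with DMSO and at 9.09% and 7.85% with STM3675, and some circles of the 4 middle sites rest on fewer than 20 reads.

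The other exons rich in members were low or mixed. THAP7 exon 2 (156 nt, 4 members) had a GGACT 24 nt from its 3′ edge that stood at 38.6% in the mean and between 31.3% and 45.9% in the 12 libraries. MCRS1 exon 8 (139 nt) held 5 members with means from 6.81% to 21.8%. LDAF1 exon 2 (194 nt) held 4, and its GGACT at position 21161217 of chromosome 16 stood at 82.6% in CAOV3 and between 19.0% and 39.7% in the other lines, on as few as 7 reads in a library. THAP7 position 21001411 and MCRS1 position 49563139 were first bases of their exons, with a motif that crosses the junction.

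With STM3675 the mean member level of CAOV3 stood close to that of non-DRACH adenosines. Over the 6472 members with 20 or more reads in all 4 CAOV3 libraries, the mean was 17.6% and 18.1% with DMSO and 10.7% and 10.8% with STM3675. The mean went from 17.9% ± 0.382 to 10.7% ± 0.0375, a difference of -7.12 points, with no overlap. An exact permutation test gave p = 0.333, the smallest that 2 libraries against 2 allow. Non-DRACH adenosines of short internal exons went from 11.8% and 11.9% to 10.1% and 10.1%, and long-exon DRACH sites (12924) from 46.0% and 47.2% to 11.2% and 11.3%. The ratio of the STM3675 to the DMSO mean was 0.602 for members and 0.241 for long-exon sites (exact permutation p = 0.333 for their difference). After subtraction of each library's median non-DRACH level and division by the share of the scale above it, the ratios were 0.176 and 0.0509. This correction rests on non-DRACH sites that were themselves listed through DMSO libraries. The STM3675 libraries gave no site its place in the table, so each listed site reached 25% with DMSO in some line. Over the 4921 members that did so in a line other than CAOV3, the means were 16.6% and 10.9%.

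Single members were tested by a quasi-binomial model of their A and G reads, with Benjamini-Hochberg adjustment over all 185923 sites tested and a threshold of 0.05. 1348 of 6472 members (20.8%) fell, where 35.2% of all sites tested fell, and 18 members (0.278%) rose, where 0.309% of all sites tested rose. The members' share of falls was thus below that of all sites, and their share of rises close to it. Sites listed only through a CAOV3 DMSO library are in these counts, and their listing favours a fall. Among sites listed through another line, a separate fit called 997 of 4921 members lower (20.3%), against 39.6% of all such sites. It called 44 higher (0.894% against 0.697%). 74.6% of the long-exon sites fell, 75.5% of the 6102 DRACH sites at the start of last exons and 2.01% of the 35434 non-DRACH sites in short internal exons. limma on the levels called 825 members lower (12.7%), where it called 29.3% of all sites, and 9 higher (0.139%), where it called 0.164% of all sites.

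A member's starting level went with the size of its fall. Of the 113 members at 50% or more with DMSO in CAOV3, 113 fell, from means of 61.5% and 61.4% to 10.7% and 10.9%. So did 5106 of the 5113 long-exon sites at that level (99.9%), so this is not particular to members. Since the class at 50% or more was chosen on the same DMSO libraries, the levels in the other 5 lines were used as well. This was done for the 2260 members covered in all 14 libraries. Of the members at 25% to 50% in the other lines 167 of 181 fell (92.3%), against 1491 of 1555 long-exon sites of that class (95.9%). Of those at 10% to 25%, 463 of 1377 fell (33.6%), against 1057 of 1780 (59.4%). Of those under 10%, 61 of 679 fell (8.98%), against 18 of 187 (9.63%). Their starting means differed within a class: at 10% to 25% elsewhere, members stood at 19.3% in CAOV3 and long-exon sites at 22.0%. By position, 417 of 2472 members within 25 nt of an edge fell (16.9%), 399 of 2223 from 25 to 49 nt (17.9%) and 532 of 1777 at 50 nt or more (29.9%), with DMSO means of 16.9%, 17.2% and 20.1%. Differences between these shares were not tested.

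WTAP gave the largest fall among members with 50 or more reads in each CAOV3 library, at the site shown above. Its level was 87.4% and 94.4% with DMSO and 9.09% and 7.85% with STM3675 (adjusted p = 1.2e-65 in the quasi-binomial model). SSU72, at position 1564775, was at 93.1% and 93.2%, then at 13.0% and 11.1% (adjusted p = 1.2e-134). NCBP2 was at 75% and 80.8%, then at 4.44% and 4.30%. The medians of the non-DRACH adenosines in these libraries were 9.38% and 9.30%, so that WTAP and NCBP2 ended below them and SSU72 above. LAMTOR2 was at 73.8% and 78.1%, then at 6.09% and 5.58%. LETM1, an ion exchanger of the inner mitochondrial membrane (exon 5, 138 nt), was at 77.0% and 81.3%, then at 9.97% and 11.1%. Among the 2304 members with 50 or more reads, 810 (35.2%) fell with no overlap between the groups, against 56.5% of all sites with 50 or more reads.

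No member at a high level kept most of it. Of the 59 members at 50% or more with DMSO and 50 or more reads in the 4 libraries, the median ratio of STM3675 to DMSO was 0.158, the range 0.0561 to 0.362, and 0 stood over 0.5. The highest ratio was at OGA, the enzyme that removes O-linked N-acetylglucosamine (exon 15, chromosome 10, position 101787441), with 73.3% and 68.8% before and 20.0% and 31.5% after. PCED1A (exon 3) was at 74.6% and 62.0%, then at 25.8% and 19.5%. GPAA1 kept 0.319 of its level and the second SSU72 member, at position 1564879, 0.303. The DMSO and STM3675 libraries of these members did not overlap. ANXA8L1, an annexin with near-identical copies whose reads could be split by the alignment, kept 0.318 and is uncertain.

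The 18 rises started from low levels. They averaged 5.40% in the DMSO libraries, then 18.8% in those with STM3675. Of the 18, 16 were among the 1572 members under 10% with DMSO in CAOV3, whose mean went from 6.79% to 9.03%. Both that class and the rises were picked on the same DMSO libraries, so a low start is in part set by the choice. limma also called 2 of the 18. With 50 or more reads and no overlap there were 9 (0.391%, against 0.268% of all sites with 50 or more reads), and the largest included those at PRC1, a microtubule bundler of the spindle midzone, DENND1A, an exchange factor for Rab35, PSMC3, a proteasome ATPase, and APEX2, an endonuclease of base excision repair. PRC1 was at 6.45% and 7.69% with DMSO and 18.4% and 22.7% with STM3675, and PSMC3 at 7.51% and 13.3%, then at 19.4% and 21.1%. None of these 4 was called by limma (adjusted p from 0.10 to 0.24). The number of rises went up when either CAOV3 DMSO library was left out and down when either STM3675 library was, so it is not stable. The share of all sites called higher moved in the same directions. The fitted spread between libraries and the number of sites tested changed as well, and the cause was not tested.

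**Figure D4:**
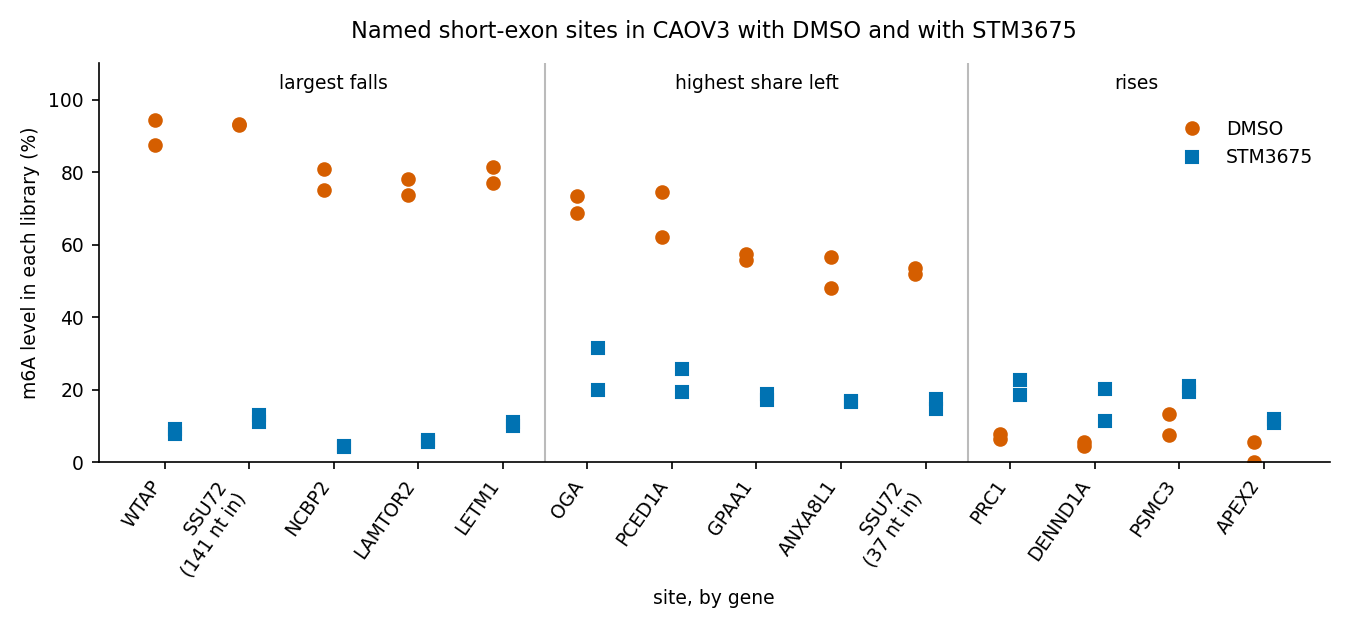
m6A level (%, vertical axis) in each CAOV3 library, 2 with DMSO (circles) and 2 with STM3675 (squares), of named members: 5 of the 8 largest falls, the 5 highest ratios of STM3675 to DMSO among sites at 50% or more, and 4 of the 5 largest rises. The falls start at 73.8% or more and end at 13.0% or less, and the OGA site is at 20.0% and 31.5% with STM3675.

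Transcripts of the writer itself were among those with a member that fell. Of 20 members tested in genes of the m6A machinery, 6 fell and 0 rose: 2 in WTAP, and 1 each in METTL3, METTL14, YTHDC1 and YTHDC2. METTL3, the catalytic subunit, had a GAACC in exon 8 (109 nt, chromosome 14, position 21499514) at 39.0% and 50.6% with DMSO and 9.58% and 7.09% with STM3675. METTL14, its partner, went from 24.6% to 1.11%, and YTHDC1, the nuclear reader, from 35.5% to 5.41%. The median difference over the 20 was -6.08 points, against -4.64 over all 6472 members. Of 17 members in exon junction complex and nonsense-mediated decay genes, 0 fell and 0 rose by the adjusted quasi-binomial test, 2 fell at an unadjusted p under 0.05, and limma called 0. Their median was -4.43 points. Their 2 highest members, in ACIN1 (exon 5) and UPF1 (exon 19), stood at 13.0% and 12.2% over the lines, near the level of all members.

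Of 26 members in splicing factors (SR and hnRNP proteins), 4 fell and 1 rose, with a median of -2.38 points. SRSF9, an SR protein, had a GGACT in exon 2 (161 nt) at 57.6% and 51.4% with DMSO and 10.1% and 10.0% with STM3675 (adjusted p = 1.2e-179), on 1140 to 1555 reads per library. HNRNPAB (exon 3, 169 nt) was at 30.2% and 31.8%, then at 6.99% and 7.23%. PTBP1 had 1 member that fell (exon 6, from 17.2% to 6.98%) and 1 that rose (exon 8, from 3.03% to 35.5%). In the double-stranded RNA and interferon genes 8 of 50 fell and 0 rose, with a median of -2.85 points. They included OAS3, a sensor of double-stranded RNA (from 40.4% to 3.46%), PARP9, an interferon-induced ADP-ribosyltransferase partner (43.4% to 8.66%), IRF3, a transcription factor of the interferon response (38.4% to 12.5%), and MX1, an antiviral GTPase (26.5% to 9.31%).

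The matrix and cytoskeleton genes had many listed members. Their share of falls, like that of the DNA repair genes, was below that of all members. Gene length and exon number were not measured. Of 180 tested members in matrix and cytoskeleton genes 22 fell and 0 rose (12.2%), with a median of -1.29 points. FLNA, an actin crosslinker, led them with a GGACT in its 98 nt exon 4, at 48.3% and 41.7% with DMSO and 9.57% and 10.0% with STM3675. DST and LRP6 gave 4 and 3 of the 22. Of 76 members in DNA repair genes 7 fell and 0 rose (9.21%), with a median of -3.60 points, among them DDB2, a sensor of ultraviolet damage (41.7% to 7.85%), and 2 in POLQ, the polymerase of end joining by microhomology (36.9% to 6.77% and 36.5% to 9.56%). 0 members rose in 5 of the 6 lists by the quasi-binomial test, at an unadjusted p under 0.05, and by limma, the splicing factors being the sixth. The shares of falls in all 6 lists are to be read beside the 20.8% of all members and the 35.2% of all sites. Rises were rare throughout: 0.278% of all members and 0.309% of all sites, and 66 of 6472 members at an unadjusted p under 0.05 (quasi-binomial). The lack of rises in lists of this size is therefore not a result about their genes. Members listed only through a CAOV3 DMSO library were not set apart in these lists.

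Among the 6 lines, the members differed in level, and most of the difference lay with the 2 lines whose non-DRACH adenosines also stood lower. The variance of the line means was tested by a permutation test with 100000 resamples of the 12 libraries (p = 0.00111). The range of line means was 9.28 points, from OE21 to CAOV3. Over A549, CAOV3, EFO21 and SKOV3 alone it was 3.12 points (permutation p = 0.1151). The way sites were listed enters these means, since 9441 of the 11681 members had reached 25% in 1 line alone. With each line averaged over members listed through another line, the range over 6 lines was 8.56 points (permutation p = 8e-05). Without A549 library 1 the permutation p over 6 lines was 0.0611, and without A549 library 2 it was 0.0612. In the order CAOV3, EFO21, SKOV3, A549, each pair of neighbours differed by less than the larger of their SDs. EFO21 and SKOV3 differed by less than both. The levels were also corrected by subtracting each library's median non-DRACH level and dividing by the share of the scale above it. The order was then CAOV3 10.3%, COV644 8.62%, EFO21 7.60%, A549 6.95%, SKOV3 6.56% and OE21 6.17% (permutation p = 8e-05). The non-DRACH sites behind this correction were listed by the same 25% rule, so the corrected order depends on that listing too.

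Of the 2315 members 1005 (43.4%) differed among the lines, where 39.5% of all sites tested differed, so the members' share was close to that of the table. It was 27.7% of the long-exon sites and 40.1% of the non-DRACH sites in short exons. The lowest line was COV644 or OE21 in 894 of the 1005. This tally is in part set by how sites were listed, since 669 of the 1005 had reached 25% in 1 line alone, and that line was the highest in 630 of these. Among the 336 that had reached 25% in 2 or more lines, COV644 or OE21 was lowest in 281. Over the 4 lines without COV644 and OE21, 163 of 3233 members differed (5.04%), against 6.89% of all sites. With 50 or more reads in all 12 libraries, 346 of 420 members differed (82.4%), against 65.9% of all sites, a wider gap. limma on the levels called 227 of the 2315 (9.81%), against 9.22% of all sites, and leaving out OE21 library 2 gave 660 of 2391 (27.6%), against 26.9% of all sites.

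The members with the widest range, a choice made on these levels, included several that were high in CAOV3. SPG11, the lysosomal protein spatacsin, had a GGACT 7 nt from the 5′ edge of its 146 nt exon 7 (chromosome 15, position 44649004). It stood at 51.0% and 56.5% in CAOV3, 26.8% and 30.8% in COV644, 23.4% and 23.4% in EFO21, 22.7% and 25.0% in SKOV3, 15.0% and 20.4% in A549, and 11.3% and 13.8% in OE21 (adjusted p = 1.9e-12, quasi-binomial). CAOV3 lay above all other lines, and the site had reached 25% in 3 lines. NUS1, a subunit of the cis-prenyltransferase for dolichol, had a TGACT 10 nt from the 3′ edge of its 100 nt exon 4 that stood at 39.7% and 47.1% in CAOV3 and at 19.0% or less in every library of the other lines. ERMP1, a peptidase of the endoplasmic reticulum, was at 52.4% and 44.3% in CAOV3 and 24.9% or less elsewhere. NUS1 and ERMP1 had reached 25% in the 2 CAOV3 libraries alone, so they are in the table only through the line in which they are high.

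Other members were high in COV644 too. SGPP1, the phosphatase of sphingosine-1-phosphate, had a GGACT 17 nt from the 5′ edge of its 90 nt exon 2 (chromosome 14, position 63698641) at 74.3% and 76.2% in COV644 and 71.2% and 72.7% in CAOV3. It was at 48.7% and 52.1% in A549, 43.5% and 47.5% in SKOV3, 47.8% and 39.4% in EFO21, and 38.9% and 36.2% in OE21 (adjusted p = 1.3e-23, quasi-binomial). SGPL1, the lyase of the same lipid, had a member in exon 14 at 53.5% in CAOV3, 45.5% in COV644 and 17.0% in OE21. SLC7A11, the cystine transporter, ranged from 17.0% in OE21 to 53.3% in CAOV3 with COV644 at 48.7%, and PIK3R4, a regulatory subunit of the class III phosphoinositide kinase, from 18.2% to 51.8% with COV644 at 44.5%. The METTL3 member of exon 8 was at 20.8% in OE21 and 59.0% in COV644.

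**Figure D5:**
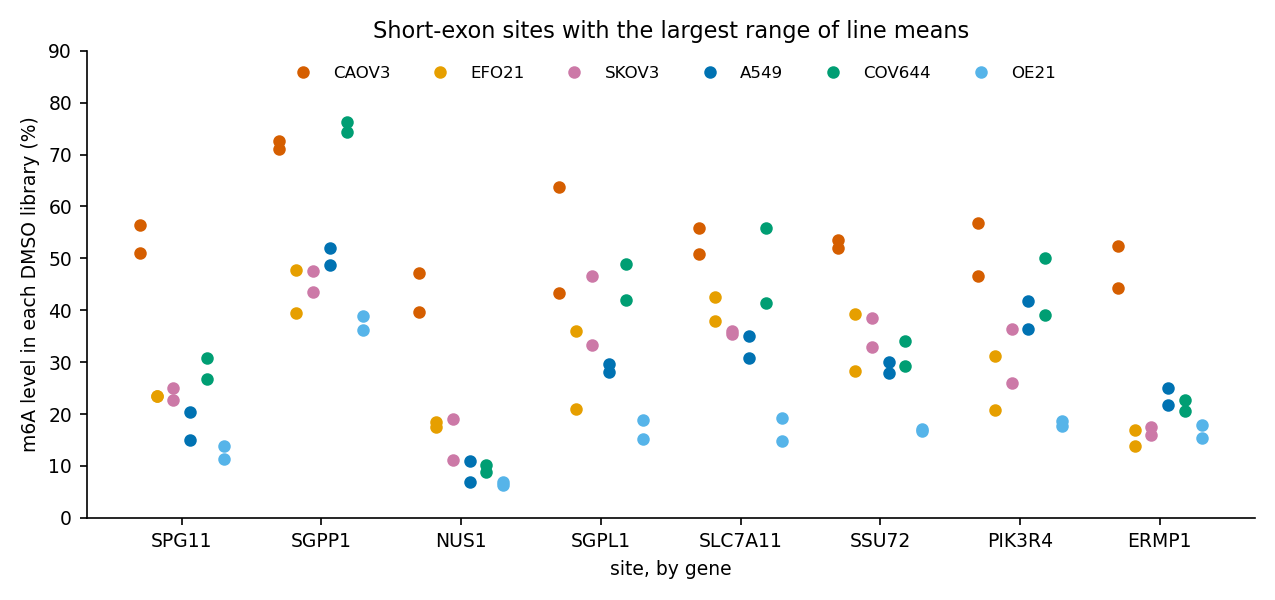
m6A level (%, vertical axis) in each of the 12 DMSO libraries, coloured by line, of the 8 members with the largest range of line means among those with 50 or more reads in every library. CAOV3 is highest at 7 of the 8 and OE21 lowest at 7 of the 8, while SGPP1 is highest in COV644 and ERMP1 lowest in EFO21. The 8 were chosen for their range: over all 1005 members that differed among lines, CAOV3 was highest at 378 and OE21 lowest at 540.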

How the data were processed

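GLORI was measured in 14 libraries from 6 cell lines. Per the submitters' processing notes, cutadapt and STAR were used with GRCh38; their versions, and the tool that called sites, are not given in the sources used. The deposited table gives, per site and library, the count of A and G reads and the fraction of A among them, as the authors computed it; its values show that a site is listed if some DMSO library had 20 or more reads and a fraction of 0.25 or higher there. Fractions are printed here as percentages, and A counts were taken as fraction times reads.

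Members, gene lists and named sites were chosen with earlier results of these data known. Sites were compared where every library concerned had 20 reads or more. Each site was fitted by a quasi-binomial logistic model with its Pearson dispersion moderated by limma's squeezeVar and floored at 1, tested on simulated data first. With so few residual degrees of freedom the moderated dispersion came out the same at all sites. P-values were adjusted by the Benjamini-Hochberg method over all sites tested in the comparison, and limma on the levels was an alternative. Line means were compared by exact sign-flip permutation, and the STM3675 and DMSO means by exact permutation of libraries. Counts of replicate libraries differed by more than sampling noise in all 7 groups (chi-square per degree of freedom 1.54 to 3.29), so none was merged. Counting error limits single levels at 20 reads.

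Named sites, 1 per gene, were the 8 highest over the lines, the 8 largest falls, the 5 highest STM3675 to DMSO ratios and up to 5 largest rises in CAOV3, the 8 largest ranges among lines (all with 50 or more reads in the libraries concerned), the 4 exons with the most members, and the 2 highest members of each gene list. The lists were exon junction complex and nonsense-mediated decay genes, m6A machinery, SR and hnRNP splicing factors, double-stranded RNA and interferon genes, matrix and cytoskeleton genes with many exons, and DNA repair genes. 4 sites that these rules pick are not reported here. The PTBP1 sites, and list members other than the 2 highest, were named after their values were seen, as were the sites printed with their sequence. The alternatives were 50 reads, pooled reads, correction for unconverted adenosine, limma, another exon limit, sites listed through another line, equal motif weights, sites with 1 annotation, a replicate block and leaving out each library.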

Additional observations from a re-analysis of the deposited data

How the results depend on the processing

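The lower levels in short than in long internal exons (all motifs, GGACT alone and within 50 nt of an edge), the difference by exon length and the edge difference in long exons kept direction and side of the threshold in every alternative run on 6 lines; the CAOV3 mean was lower with STM3675 in all alternatives, in a design too small to pass. The difference by exon length was 1.67 points with equal motif weights. The 1348 members lower with STM3675 were 859 of 2304 with 50 reads (37.3%, against 57.6% of all sites). They were 825 by limma (12.7% against 29.3%) and 560 of 3808 in exons under 150 nt (14.7%, against 35.2% of all sites). The 18 higher were 9 by limma, 44 of 4921 among sites listed through another line, and 8 to 57 when a library was left out. The 1005 differing among lines were 346 of 420 with 50 reads, 227 by limma, 559 of 1301 in exons under 150 nt, 163 without COV644 and OE21, and 660 to 1239 when a library was left out. Fewer sites were tested at 50 reads and in the shorter exons; the cause of the other shifts was not tested. The edge difference of members was 0.0657 points with 50 reads, -0.123 points in exons under 150 nt and 0.555 points with equal motif weights. The side difference was -0.739 points with 50 reads, -0.327 points from pooled reads, 0.477 points for sites listed through another line and 0.253 to 0.548 points when a library was left out, and its exact permutation p was 0.03125 in 6 alternatives. The range of line means was 9.01 to 9.65 points when a library was left out and 3.12 points without COV644 and OE21.

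Replicate numbers did not pair libraries: deviations correlated at -0.0318 to 0.0292 between lines, with 0 of 15 pairs over 0.1, and at -0.00683 between the CAOV3 groups. With the replicate block 1333 members were lower and 20 higher with STM3675, and 1014 differed among lines. The 4-line alternative, like the comparison within 50 nt of an edge, was chosen after seeing the data; 4 lines cannot give an exact p under 0.125. At 20 reads a level is imprecise.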
